A study of Mus musculus with 4 samples.

Results

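Respiratory complex I, or NADH:ubiquinone oxidoreductase, takes electrons from NADH in the mitochondrial matrix, passes them along a chain of iron-sulfur clusters to ubiquinone, and pumps protons across the inner membrane. Its catalytic core is built from nuclear-encoded subunits of the peripheral arm and mitochondrially encoded subunits of the membrane arm, and it is surrounded by accessory subunits that stabilise it. Assembly factors help to build the complex and are not part of the finished enzyme. The accessibility of the promoters of the nuclear genes was examined in epidermal keratinocytes by ATAC-seq, an assay that cuts and tags open chromatin with the Tn5 transposase.

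The genes were chosen by symbol as the protein-coding autosomal genes starting Ndufa, Ndufb, Ndufc, Ndufs, Ndufv or Ndufaf, which gave 44 of 20807 autosomal protein-coding genes. The rule itself used no measured value, but it was set with earlier results of these data known. They were 7 core subunits, 27 accessory subunits, 8 assembly factors, and 2 genes that carry the name but are set apart here, Ndufa4, whose product is assigned to complex IV, and Ndufa4l2, a related gene known to be induced in hypoxia. A further 2 Nduf genes on the X chromosome were left out. A promoter region was a merged peak within 2000 bp of an annotated transcription start site (TSS), and 54 of 82641 merged regions met this for a complex I gene.

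The libraries came from keratinocytes sorted as EpCam+CD49fhi cells from the skin of mice, with 2 WT and 2 Mapk8-KO samples. Mapk8 encodes the kinase JNK1, and per the study's methods the knockout mice carried floxed Mapk8 with a keratin 14-driven Cre, so that the gene was deleted in the epidermis and not in the whole animal. Mice of both genotypes were C57BL/6 females of 8 to 12 weeks, and controls were littermates. All had received topical cream with 5% imiquimod for 8 days, so no untreated skin was compared. Libraries are named by genotype and replicate number. The comparison asks whether loss of JNK1 in keratinocytes went with a change in promoter accessibility at these genes.

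Between 49856 and 69927 peaks were listed per library. The median fragment pileup at a summit lay between 26 and 36, so a typical peak rested on few fragments. Replicate 2 of each genotype was the shallower, at 0.694 and 0.646 of the depth of WT 1. The Mapk8 promoter was called in all 4 libraries, with 96 and 73 fragments in WT and 109 and 90 in Mapk8-KO. The deleted part of the gene is not given in the sources used here, so this peak does not check the deletion. Among keratinocyte markers, 7 of 10 promoters were called in all 4 libraries and none was missing from all of them. Of 5 leukocyte marker promoters none was called in any library, whereas 3 of 5 melanocyte, 2 of 3 fibroblast and 1 of 2 endothelial marker promoters were called in all 4. An open promoter does not show that its gene is transcribed.

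Short DNA motifs were looked for around the strongest summit, up to 100 bp away and in either orientation, in each of the 45 complex I promoter regions called in all 4 libraries. The core motif of YY1, a zinc-finger factor that binds many promoters of mitochondrial genes, was searched as AAGATGGC and was found in 6 of the 45 regions (13.3%), beside 2.81% of the 11804 promoter regions of autosomal protein-coding genes called in all 4 libraries. Each of the 6 matches lay on the coding strand and downstream of the TSS, between bases 6 and 206. All but that of Ndufa2 are shown, because they have this position and orientation in common. Each line reads 5′ to 3′ on the gene's strand, from the mm10 genome, with the motif in capitals and 8 flanking bases on either side.
Ndufs6, chr13:73328434-73328457, minus strand: tcaccggcAAGATGGCggcggtgc
Ndufa3, chr7:3617387-3617410, plus strand: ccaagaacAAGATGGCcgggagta
Ndufb8, chr19:44555389-44555412, minus strand: agaaggtgAAGATGGCtgccgccc
Ndufc1, chr3:51408918-51408941, minus strand: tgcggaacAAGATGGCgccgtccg
Ndufs4, chr13:114388044-114388067, minus strand: cctacaggAAGATGGCggcggtct

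The NRF1 core, searched as GCGCATGC, was found in 4 of 45 regions (8.89%), beside 3.74% of all promoter regions. NRF1, nuclear respiratory factor 1, is known for binding promoters of respiratory chain genes. The regions belonged to 2 accessory subunit genes, Ndufa6 and Ndufa8, and 2 assembly factor genes, Ndufaf4 and Ndufaf5. One match of each is shown because the regulation of this gene family is usually described through this factor. The reverse complement of the motif is written where the match lies on the opposite strand.
Ndufa6, chr15:82354359-82354382, minus strand: gcggtagaGCATGCGCattgcaga
Ndufa8, chr2:36049331-36049354, minus strand: ctggagacGCATGCGCagatggta
Ndufaf4, chr4:24898076-24898099, plus strand: cctggtgtGCGCATGCtccgtgcg
Ndufaf5, chr2:140170654-140170677, plus strand: tcccgttgGCGCATGCgcctaata

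The remaining motifs fell on either side of the share over all promoters. The ERR half-site AAGGTCA, bound by the oestrogen-related receptors, was found in 3 of 45 regions (6.67% beside 1.39%), at Ndufa9, Ndufb4 and Ndufs6. For the ETS motif CCGGAAGT the count was also 3 (6.67% beside 5.53%), and for the cyclic AMP response element TGACGTCA it was 2 (4.44% beside 2.64%). The SP/KLF motif GGGCGG was in 21 regions (46.7% beside 59.9%) and CCAAT in 8 (17.8% beside 31.4%). The AP-1 motif, TGAGTCA or TGACTCA, the target of the Jun proteins that JNK kinases phosphorylate, was in 1 region, that of Ndufa5 (2.22% beside 6.95%). None of these motifs contains another. A match describes letters in the window and is not evidence of binding, and the counts are small. The promoters of complexes II to V, the other enzymes of the oxidative phosphorylation chain, had NRF1 matches in 5 of 36 regions (13.9%) and YY1 matches in 4 (11.1%).

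**Figure D1:**
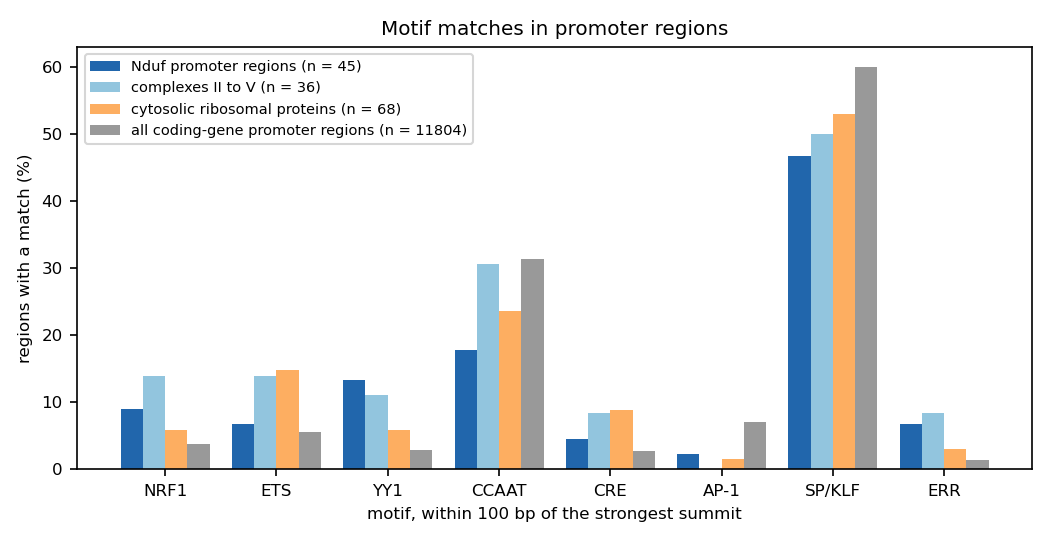
Bars give the share of promoter regions, in percent, with at least 1 match to each motif within 100 bp of the strongest summit, for 4 sets of regions called in all 4 libraries. YY1 matches were in 13.3% of the Nduf regions and 2.81% of all coding-gene promoter regions, while AP-1 matches were in 2.22% and 6.95%.

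Upstream sequences are given for the members on which the accessibility results turn. They are Ndufb8 and Ndufc2, which ranked higher in Mapk8-KO, Ndufs8, a high-ranking core subunit, Ndufb10, the lowest-ranking of the main regions called in all 4 libraries, and Ndufaf1, which had no call in 1 library. Each is the 250 bases before the TSS, 5′ to 3′ on the gene's strand, from RefSeq promoter sequences on GRCm38, the assembly that mm10 denotes. Of the 44 genes 38 had an entry. Capitals mark matches to the motifs above, here CCAAT and SP/KLF on either strand.
Ndufb8, chr19:44555443-44555692, minus strand: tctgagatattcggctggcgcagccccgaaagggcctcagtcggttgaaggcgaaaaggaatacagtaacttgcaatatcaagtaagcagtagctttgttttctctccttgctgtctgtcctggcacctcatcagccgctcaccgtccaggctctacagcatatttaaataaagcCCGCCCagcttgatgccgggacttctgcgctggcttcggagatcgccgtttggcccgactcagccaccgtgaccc
Ndufc2, chr7:97399753-97400002, plus strand: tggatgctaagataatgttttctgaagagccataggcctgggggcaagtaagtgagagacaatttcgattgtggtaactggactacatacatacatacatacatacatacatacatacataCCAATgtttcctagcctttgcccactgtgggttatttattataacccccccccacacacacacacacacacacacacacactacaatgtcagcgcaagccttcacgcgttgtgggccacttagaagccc
Ndufs8, chr19:3912775-3913024, minus strand: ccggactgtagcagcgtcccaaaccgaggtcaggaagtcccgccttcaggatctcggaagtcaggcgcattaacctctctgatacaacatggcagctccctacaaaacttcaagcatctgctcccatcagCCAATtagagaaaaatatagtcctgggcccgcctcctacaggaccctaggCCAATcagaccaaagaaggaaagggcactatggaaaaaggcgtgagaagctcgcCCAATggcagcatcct
Ndufb10, chr17:24724424-24724673, minus strand: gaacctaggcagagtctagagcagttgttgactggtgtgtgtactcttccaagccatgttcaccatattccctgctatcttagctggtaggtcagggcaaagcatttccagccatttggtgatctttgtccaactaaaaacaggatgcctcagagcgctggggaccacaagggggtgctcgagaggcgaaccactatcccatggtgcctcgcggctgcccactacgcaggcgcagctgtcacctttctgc
Ndufaf1, chr2:119662835-119663084, minus strand: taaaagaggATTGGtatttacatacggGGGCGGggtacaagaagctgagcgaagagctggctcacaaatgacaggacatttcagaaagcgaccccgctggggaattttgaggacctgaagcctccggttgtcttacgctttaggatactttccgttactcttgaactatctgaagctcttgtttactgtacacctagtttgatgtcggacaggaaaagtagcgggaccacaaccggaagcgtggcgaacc
The high-ranking core promoter of Ndufs8 held 3 CCAAT boxes, and the low-ranking Ndufb10 held no match to any of the motifs in these 250 bases. High-ranking promoters, such as those of Ndufaf7, Ndufa5 and Ndufb5, also held no match in their 250 bases. The Ndufc2 sequence was the poorest in CpG, with 4 CpG dinucleotides in 250 bases and runs of short repeats, against 15 in Ndufb8.

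All 44 genes had a region within 2000 bp of a TSS in at least 1 library, compared with 66.2% of all autosomal protein-coding genes, and 43 had one called in all 4 libraries, compared with 56.2%. For 42 genes the region at or nearest the TSS, called the main region from here on, was itself called in all 4. The exceptions were Ndufaf1 and Ndufa4l2. Main regions called in all 4 libraries were 551 to 1188 bp wide, with a median of 862 bp. Over the 44 genes, the summit lay within 100 bp of an annotated TSS in 34, outside the gene in 21, in a UTR in 18, in a coding exon in 3 and in an intron in 2.

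Main regions of 15 of the 42 genes (35.7%) also held the TSS of another protein-coding gene, compared with 17.8% of 11368 genes with such a region. The neighbour was on the opposite strand in 14 of the 15, the exception being Yjefn3 at Ndufa13. For example, Ndufb5 shared its region with Mrpl47 and Ndufs6 with Mrpl36, both for mitochondrial ribosomal proteins, Ndufa7 with Rps28 of the small cytosolic ribosomal subunit, and Ndufs1 with the elongation factor gene Eef1b2. Among assembly factor genes 4 of 7 shared a region, Ndufaf7 with Cebpz, Ndufaf5 with Esf1, Ndufaf8 with Tepsin and Ndufaf2 with Ercc8. Accessibility of such a region cannot be told apart between both genes.

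Fold enrichment, the authors' ratio of the summit pileup to the local background, was turned into a percentile within each library's own peak list, where 100 is the highest. Complex I promoters ranked high. The median over the 42 main regions was 85.8 and 84.5 in WT and 86.3 and 90.3 in Mapk8-KO, whereas the median over the main regions of all autosomal protein-coding genes was 73.1, 69.9, 76.4 and 72.7 in the same order. Mean percentiles over the 4 libraries exceeded 90 for 18 genes, namely 4 core, 8 accessory and 6 assembly, and fell under 50 for 4. The shares of all genes past these limits were not counted. Across the 42 genes the mean percentile and the mean depth-scaled pileup had a Spearman rho of 0.786. Both measures come from the same libraries, so this is a description.

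**Figure D2:**
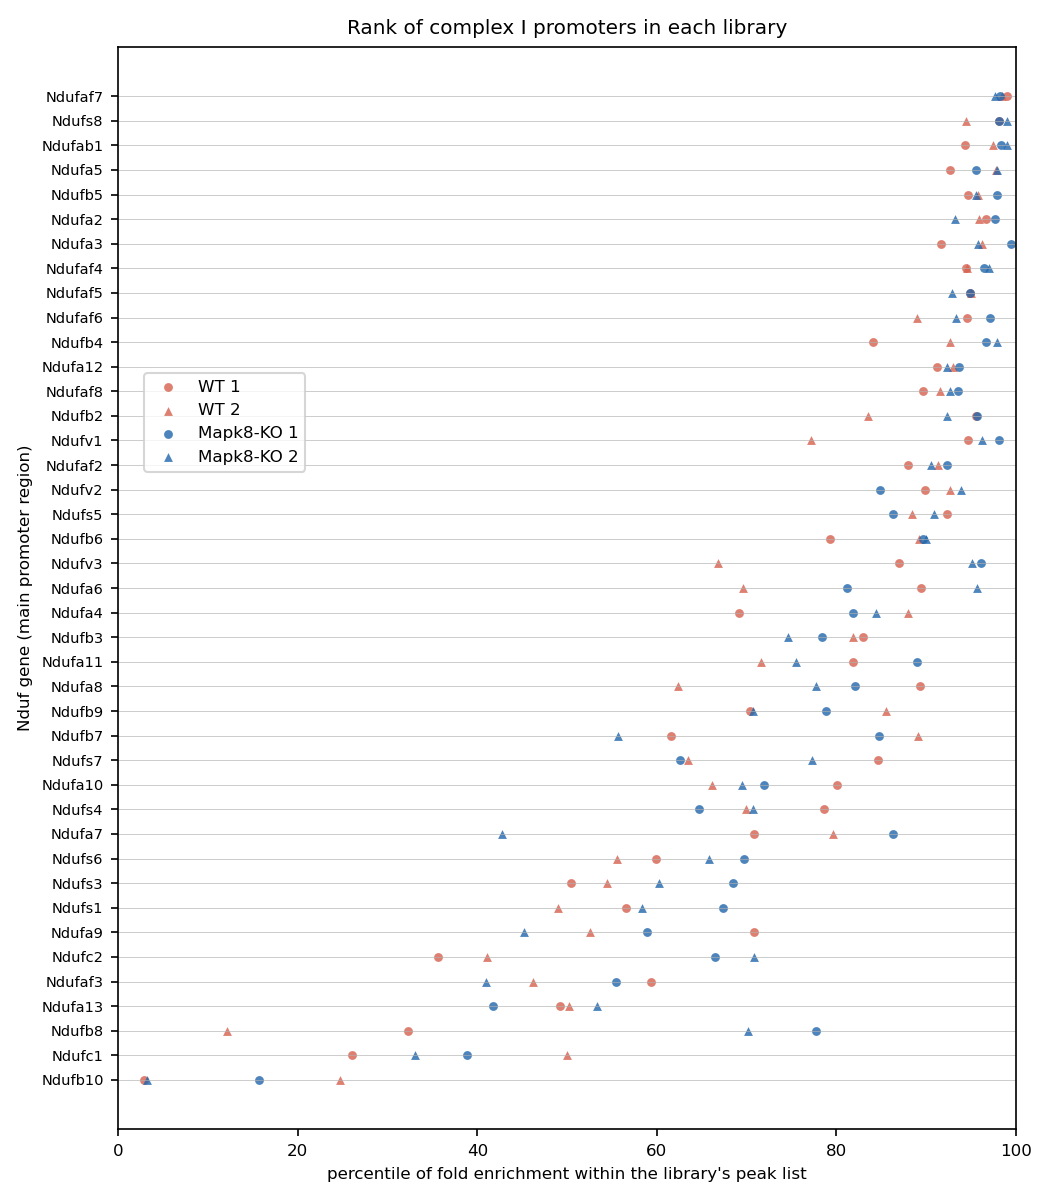
Each row is the main promoter region, called in all 4 libraries, of 1 of 41 complex I genes, ordered by mean percentile, and each point is 1 library (red WT, blue Mapk8-KO, circles replicate 1, triangles replicate 2) on the percentile of fold enrichment within that library's peak list. The 4 points of Ndufaf7 all sit near 98, while both Mapk8-KO points of Ndufb8 and Ndufc2 stand clear of both WT points.

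The 7 core subunit genes fell into a high and a middle band. Ndufs8, which carries iron-sulfur clusters of the peripheral arm, was at 98.1 and 94.4 in WT and 98.2 and 99.0 in Mapk8-KO. Ndufv1, the subunit that binds NADH and the flavin cofactor, was at 94.7 and 77.2 in WT and 98.1 and 96.2 in Mapk8-KO. Its partner Ndufv2 was at 89.9 and 92.7 in WT and 84.8 and 93.9 in Mapk8-KO, with the genotypes overlapping.

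The middle band held the other core genes. Ndufs7, which carries the last iron-sulfur cluster before ubiquinone, was at 84.6 and 63.5 in WT and 62.6 and 77.3 in Mapk8-KO, a spread within each genotype larger than the difference between them. Ndufs3 was at 50.4 and 54.4 in WT and 68.5 and 60.3 in Mapk8-KO. Ndufs1, the largest subunit of the NADH-oxidising module, was at 56.6 and 49.0 in WT and 67.4 and 58.3 in Mapk8-KO. Neither Ndufs3 nor Ndufs1 overlapped between genotypes, by 5.85 and 1.74 percentile points. Their limma log2 differences were 0.21 (SE 0.20) and 0.19 (SE 0.20), about the size of the error.

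Assembly factor genes ranked high as a list. The median over the 7 genes with a main region called in all 4 was 94.5 and 91.5 in WT and 94.9 and 92.9 in Mapk8-KO, compared with 81.8, 79.6, 84.8 and 75.5 for the 27 accessory genes and 89.9, 77.2, 84.8 and 93.9 for the 7 core genes. The lists of 7 are small. Ndufaf7, a methyltransferase, had the highest mean percentile of all members, at 99.0 and 98.5 in WT and 98.3 and 97.7 in Mapk8-KO. Ndufaf4 and Ndufaf5 lay between 92.9 and 97.0 in every library, and Ndufaf6 between 88.9 and 97.1. Ndufaf8, the partner of Ndufaf5, lay between 89.7 and 93.5, and Ndufaf2, a relative of the accessory subunit Ndufa12, between 88.0 and 92.3. Every library of Ndufaf7 was above every library of the others, and every library of Ndufaf4 was above every library of Ndufaf8 and Ndufaf2. Ndufaf5, Ndufaf6 and Ndufaf8 overlapped.

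A lower level was seen at the remaining assembly factor genes. Ndufaf3, which acts together with Ndufaf4, was at 59.3 and 46.2 in WT and 55.4 and 41.0 in Mapk8-KO. The main region of Ndufaf1, a factor of the membrane-arm assembly complex, had 23 fragments and a fold enrichment of 7.66 in WT 1 and no peak in WT 2. In Mapk8-KO 1 it had 16 fragments and a fold enrichment of 4.83, and in Mapk8-KO 2 it had 11 fragments and 4.68. With 11 to 23 fragments where called, a missing call in a shallower library is not evidence of a closed promoter. However, Mapk8-KO 2 was shallower than WT 2 and did have the call. The region was not tested, since the fit used regions called in all 4 libraries.

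Accessory subunit genes covered nearly the whole range. Ndufab1, the mitochondrial acyl carrier protein, was the highest of them, at 94.4 and 97.4 in WT and 98.3 and 99.0 in Mapk8-KO. At the other end, Ndufb10, of the membrane arm, was at 2.90 and 24.7 in WT and 15.7 and 3.18 in Mapk8-KO, with 17 and 17 fragments in WT and 24 and 14 in Mapk8-KO. Ndufc1 was at 26.1 and 49.9 in WT and 38.8 and 33.1 in Mapk8-KO. Neither of these low-ranking genes separated the genotypes.

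Among the genes set apart, Ndufa4 was at 69.2 and 88.0 in WT and 81.9 and 84.4 in Mapk8-KO. The region nearest the TSS of Ndufa4l2 was called in Mapk8-KO 1 alone, with a fold enrichment of 2.60, and flanking regions of the gene, 1676 and 1887 bp away and called in all 4 libraries, stood between percentiles 3.67 and 14.8. Whether these weak regions belong to its promoter was not tested.

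**Figure D3:**
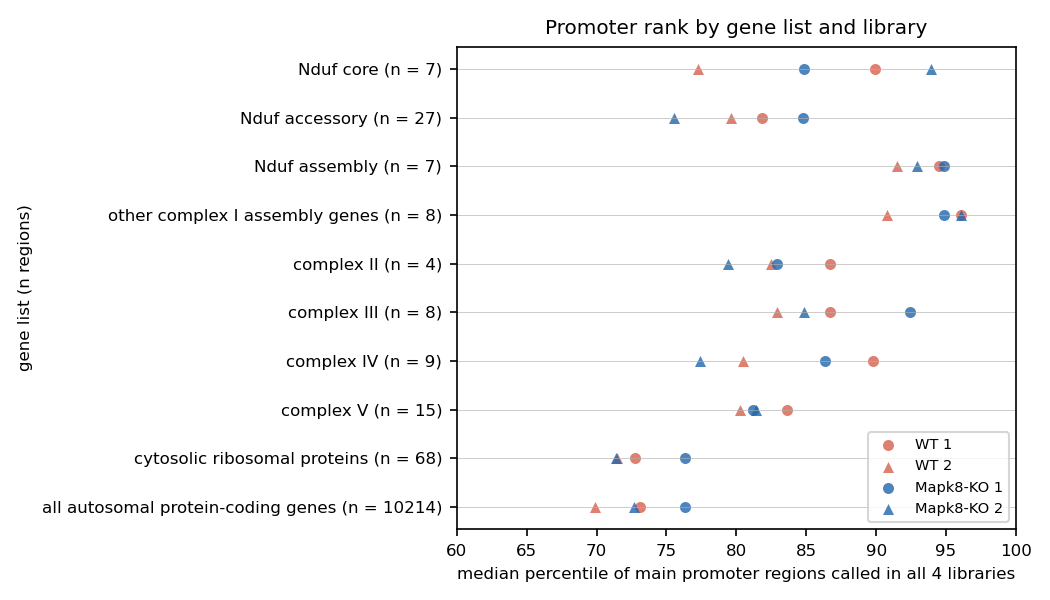
Each point is the median percentile, in 1 library, of the main promoter regions called in all 4 libraries for a gene list (red WT, blue Mapk8-KO, circles replicate 1, triangles replicate 2, number of regions beside each list). The 3 Nduf lists and the lists of complexes II to V lie above the list of all autosomal protein-coding genes in every library, whereas the cytosolic ribosomal protein genes overlap it.

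The other complexes of the chain, chosen as lists of gene symbols, stood at a similar height. Over 36 of 40 gene records of complexes II to V with a main region called in all 4 libraries, the median percentile was 84.4 and 81.0 in WT and 86.4 and 81.1 in Mapk8-KO. The 8 further complex I assembly genes that carry other names, among them Timmdc1, Foxred1 and Ecsit, had medians of 96.1 and 90.8 in WT and 94.9 and 96.1 in Mapk8-KO. Cytosolic ribosomal protein genes, an equally widely expressed group, had 68 of 72 such regions and medians of 72.8, 71.5, 76.4 and 71.4, close to all genes.

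For the comparison of genotypes, a region was called ranked higher in one genotype when both its percentiles there exceeded both in the other by 10 points or more. Of the 45 complex I regions called in all 4 libraries, 2 ranked higher in Mapk8-KO (4.44%) and 0 in WT. The same rule called 4.21% of all 11804 promoter regions higher in Mapk8-KO and 1.11% higher in WT, so the count for complex I was near the background. By a looser measure, both Mapk8-KO percentiles lay above both WT percentiles in 16 of 45 regions (35.6%) and the reverse held in 2 (4.44%), against 25.5% and 9.37% of all promoter regions. The 16 were 13 main regions, of 4 core, 7 accessory and 2 assembly factor genes, the second region of Ndufa13 and both flanking regions of Ndufa4l2. That region of Ndufa13 was nearer to a TSS of another gene, Tssk6 (185 bp), than to its own (559 bp). Over main regions alone, the shares were 31.0% and 4.76% for complex I, against 26.3% and 9.09% for all autosomal protein-coding genes. The rank-gap count was 8 without WT 1, 5 without WT 2, 5 without Mapk8-KO 2 and 2 without Mapk8-KO 1. The count higher in WT was 1 or 2 with any library left out. With a library left out, fewer values have to clear the gap, and regions not called in that library can enter. The complex I regions compared were then 46 without WT 2 and 46 without Mapk8-KO 2. With 2 libraries against 2, the smallest two-sided exact permutation p is 0.333, so no single promoter can be called by such a test.

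Ndufb8, a membrane-arm subunit widely used as a marker of assembled complex I, showed the largest separation. Its promoter was at percentiles 32.3 and 12.1 in WT and 77.7 and 70.2 in Mapk8-KO, and its fold enrichment was 5.75 and 4.74 against 10.5 and 9.35. The summit pileup was 17 and 11 fragments in WT and 36 and 23 in Mapk8-KO. Both Mapk8-KO libraries were higher than both WT libraries on each of these scales. The log2 difference in fold enrichment was 0.96 (SE 0.21, 95% interval 0.53 to 1.40), a 1.95-fold difference. Its adjusted p was 0.276 in limma with Benjamini-Hochberg adjustment over 40159 regions, so it did not pass the threshold. On the recovered pileup the log2 difference was 1.09, with a limma adjusted p of 0.0649, also short of the threshold. Leaving out Mapk8-KO 1, the adjusted p was 0.0335, in a fit that called 823 regions in all, and leaving out any other library it was 0.126 to 0.363, with log2 differences from 0.87 to 1.07. In each of these fits 1 genotype has a single library, which is assumed to vary like the pair of the other genotype. This promoter has the YY1 match at bases 22 to 29 shown above, and its strongest summit lay 22 bp downstream of the TSS.

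The other gene past the rank gap was Ndufc2, also of the membrane arm. It was at percentiles 35.6 and 41.1 in WT and 66.5 and 70.8 in Mapk8-KO, with 26 and 23 fragments against 37 and 30. On percentiles the libraries of each genotype lay close together and did not overlap. Scaled for depth, the pileups were 26.0 and 33.1 in WT and 33.1 and 46.4 in Mapk8-KO, so WT 2 and Mapk8-KO 1 were level. The 95% interval of the log2 difference in pileup was −0.08 to 1.02. With 1 library left out, the log2 difference in fold enrichment was 0.39 to 0.67. The log2 difference was 0.53 (SE 0.21, 95% interval 0.09 to 0.97) with a limma adjusted p of 0.654. Ndufc2 stood 25.4 points apart and was the member nearest inside the 10-point limit, and Ndufv3, at 8.22 points, was the nearest outside it.

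In limma on the log2 fold enrichment, 0 of 45 complex I regions passed an adjusted p of 0.05, as did 0 of all 40159 regions (0.0%). At an unadjusted p of 0.05, 2731 of all regions passed. For complex I 5 of 45 did (11.1%), all higher in Mapk8-KO, where 2.96% of all regions and 3.09% of promoter regions passed in that direction. They were Ndufb8, Ndufc2, Ndufv3, Ndufv1 and Ndufb4. The complex I count was 3 without a variance trend, where 2709 of all 40159 regions passed in either direction. That count also changed whenever 1 library was left out. On the recovered pileup in place of fold enrichment, 244 of the 40159 regions (0.608%) passed the adjusted threshold but none of complex I. At the unadjusted p, 7 of 45 complex I regions passed, all higher in Mapk8-KO, where 8.84% of all promoter regions passed in that direction.

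Ndufv3, an accessory subunit of the NADH-oxidising tip, had a fold enrichment of 12.3 and 9.35 in WT and 15.4 and 14.3 in Mapk8-KO. Its log2 difference was 0.51 (SE 0.16, limma adjusted p = 0.497). Ndufv1, in the same module, had 14.6 and 10.7 in WT and 16.7 and 14.8 in Mapk8-KO, and a log2 difference of 0.37 (SE 0.15, limma adjusted p = 0.671). In both genes WT 2 was the lowest library, and without it the log2 differences were 0.36 and 0.19. Ndufb4 had 11.7 and 13.7 in WT and 15.7 and 15.8 in Mapk8-KO, and a log2 difference of 0.35 (SE 0.15, limma adjusted p = 0.687). There WT 1 was the lowest, and the log2 difference was 0.20 without it.

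None of the 42 main regions in the fit was lower in Mapk8-KO beyond its error. Ndufaf1, at percentile 54.6 in WT 1 and 21.6 and 12.8 in Mapk8-KO, had no call in WT 2 and was not in this fit. The lowest log2 differences were those of Ndufa9 at −0.18 (SE 0.20), Ndufs4 at −0.14 (SE 0.19) and Ndufa7 at −0.13 (SE 0.21). Ndufa9 supports the junction of both arms, and its fold enrichments were 9.55 and 7.90 in WT and 7.95 and 7.01 in Mapk8-KO. Ndufs4, a subunit whose loss in mice is a well-known model of mitochondrial encephalopathy, had 10.7 and 9.70 in WT and 8.63 and 9.39 in Mapk8-KO. Ndufa7 was at percentiles 70.9 and 79.6 in WT and 86.3 and 42.8 in Mapk8-KO, with the Mapk8-KO libraries on either side of WT.

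**Figure D4:**
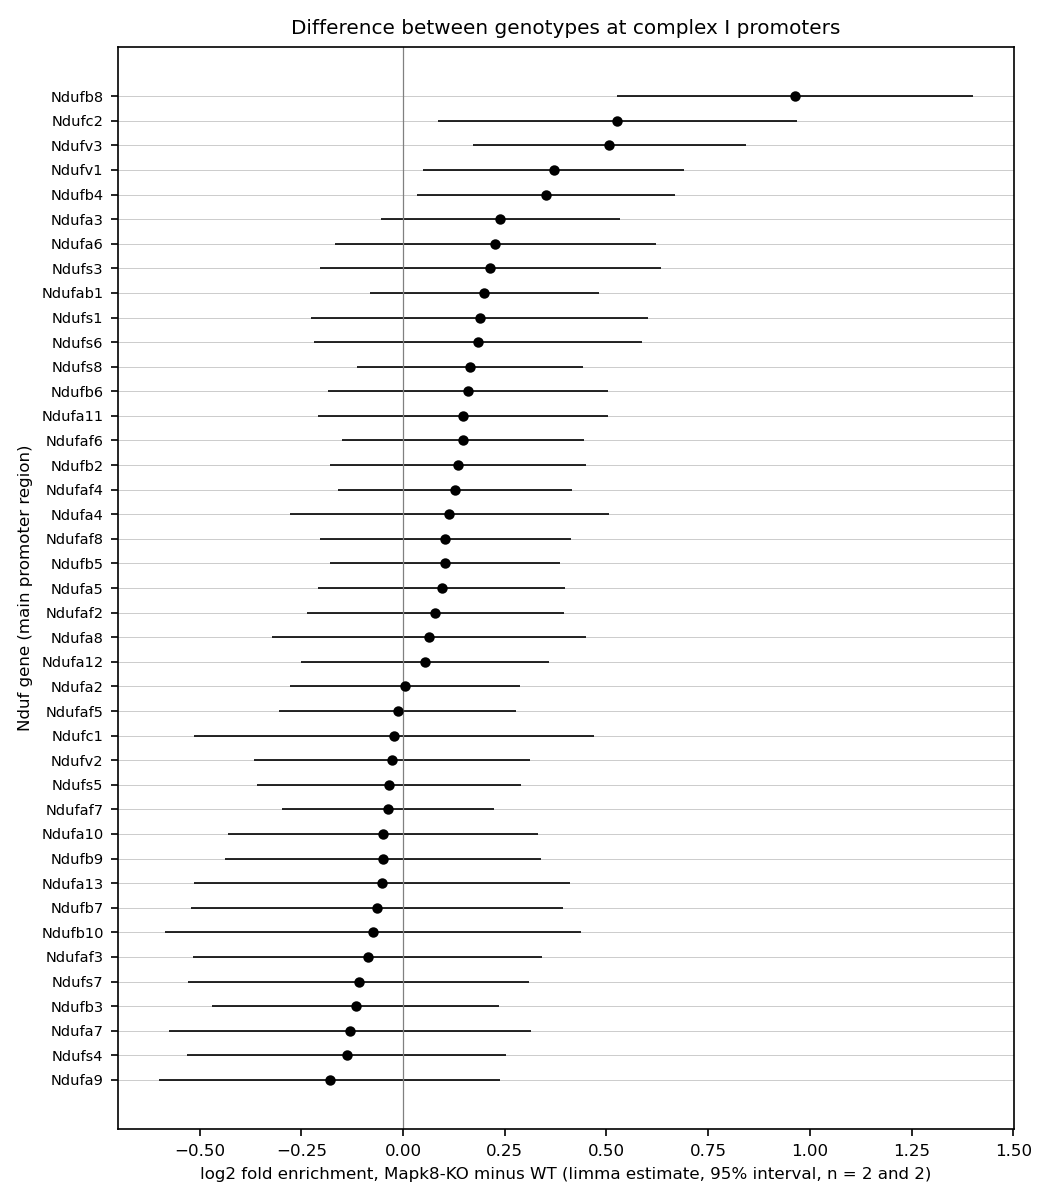
Points give the limma estimate of the log2 fold enrichment difference, Mapk8-KO minus WT, for the main promoter regions of 41 complex I genes, with 95% intervals from 2 libraries per genotype, and the grey line marks no difference. The interval of Ndufb8 runs from 0.53 to 1.40, those of Ndufc2, Ndufv3, Ndufv1 and Ndufb4 also exclude 0 before adjustment, and the other intervals cover it.

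The middle of the complex I list shifted little. The median log2 difference over the 45 regions was 0.09, with 29 of 45 above 0 (64.4%), where the median over all 11804 promoter regions was 0.07 with 66.0% above 0. On the pileup scale 34 of 45 were above 0, with a median of 0.15 for complex I and 0.16 for all promoter regions. The share of all promoter regions above 0 was not counted on that scale. Over main regions the median was 0.09 for the 42 complex I genes, 0.10 for complexes II to V, 0.08 for cytosolic ribosomal proteins and 0.07 for all genes. Library medians of the percentile over the 45 regions were 84.1 and 81.9 in WT and 84.8 and 84.4 in Mapk8-KO, a difference of 1.62 points that reversed to −0.645 without WT 2. The intervals of most members were wide, with a median SE of 0.17, and they do not show that these promoters were equally accessible in both genotypes.

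Of the 54 regions, 9 were not called in all 4 libraries, among them the main regions of Ndufaf1 and Ndufa4l2. A region at the edge of the distance limit, 2000 bp from an Ndufs3 TSS, was called in 3 libraries. Its fold enrichment was 11.3 in WT 1, 9.99 in WT 2 and 7.94 in Mapk8-KO 1. A second region near Ndufa6, 1510 bp from its TSS, was called in both WT libraries, with 28 and 23 fragments, and in neither Mapk8-KO library. The other 5 were called in a single library each, 3 of them in WT 1.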

How the data were processed

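The authors aligned read pairs to mm10 (Bowtie2), discarded multiply or poorly mapped reads (samtools), and called peaks per library with MACS2 on whole fragments, with no control named. Peak names state that mitochondrial reads were removed. No shift for the Tn5 insertion site is stated. The deposited fold enrichment is a ratio of the summit pileup to local background. The deposited −log10 p and −log10 q values were used to recover the pileup and for a stricter threshold, and the authors' other deposited column is the summit offset from the peak start.

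Peaks were merged at 1 bp overlap and assigned to genes of GENCODE release M21. The highest fold per region and library gave percentiles and, as log2 values centred on the regions called in all 4 libraries, was tested with limma 3.58.1 (trend) in R 4.3.3, two-sided. The study tested read counts, which were not used here. Whole pileups (within 0.05 fragments) were recovered for 244217 of 244222 peaks. The 2 samples per genotype are described as independent.

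The members and lists were chosen with earlier results of these data known. Genes named with values were the core subunits, the assembly factors, members past the rank gap or the adjusted p, members with a main region not called in all 4 libraries, and the 3 highest and 3 lowest by percentile and by log2 difference. Ndufb4, Ndufab1, Ndufs6, Ndufa4, the genes with a motif match or a shared region, the side regions and the genes of the closing section were named outside this rule, after their values were seen. Alternatives were another promoter distance, overlap, q, percentile, rank gap, scale, variance trend, replicate block, motif window and leaving out each library. The limma script was tested on simulated data. The single values of 1 member counted in the lists are not reported here, and the plots of single genes leave it out.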

Additional observations from a re-analysis of the deposited data

How the results depend on the processing

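Of 64 alternative values for 8 results, 48 kept their direction and their side of any threshold, with counts within 1.5 times and other values within 1 SD of the spread between replicates. The number of complex I regions ranked higher in Mapk8-KO, 2 with all libraries, was 1 where peaks had to cover 50% of the region, 4 with percentiles among regions called in all 4 libraries and 6 with a rank gap of 5 points, and 2 to 8 with 1 library left out. The number ranked higher in WT, 0 with all libraries, was 1 to 2 with 1 library left out. The difference of median percentiles, 1.62 points, was 4.07 with a promoter distance of 1000 bp, 6.97 with percentiles of −log10 p, and −0.645 to 2.74 with 1 library left out, where the negative value came without WT 2. The median log2 difference, 0.09, was 0.041 to 0.165 with 1 library left out. The number of complex I regions past the adjusted p, 0 with all libraries, was 0 to 1 with 1 library left out, the 1 being Ndufb8 without Mapk8-KO 1, when 823 regions passed in all. With a library left out, fewer values have to clear the rank gap, and regions not called in that library can enter. The cause of the other changes was not tested. Replicates share only a number, and the difference of replicate 1 and 2 correlated between genotypes with r = 0.102 over 40159 regions. With the replicate block, 3 regions ranked higher in Mapk8-KO and 0 passed the adjusted p. With the replicate block and recovered pileup, an alternative chosen after seeing the data, 1 passed, when 386 regions passed in all. Pileups of 11 to 36 fragments at Ndufb8 limit what can be detected there. Many other complex I promoters were deeper, with a median depth-scaled pileup of 60.5 to 73.5 per library over the 42 main regions.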

Other observations

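Inside complex I genes but beyond 2000 bp from their TSSs, further regions were called in all 4 libraries, most of them at moderate rank. The highest was in Ndufs4, at percentiles 97.3 and 97.2 in WT and 94.6 and 93.5 in Mapk8-KO, and one in Ndufa4, with an AP-1 match, was at 88.5 and 94.5 in WT and 87.4 and 77.0 in Mapk8-KO. Their log2 differences were −0.12 and −0.22, with limma adjusted p of 0.928 and 0.855. An intronic or exonic region need not act on the gene that holds it.

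The X-linked subunit genes had promoters called in all 4 libraries. Ndufa1 was at percentiles 85.8 and 71.3 in WT and 81.5 and 67.5 in Mapk8-KO, and Ndufb11 at 78.1 and 57.7 in WT and 72.1 and 80.6 in Mapk8-KO. Ndufb1-ps, annotated as a non-coding RNA at a bidirectional promoter, was at 86.5 and 85.2 in WT and 81.6 and 75.0 in Mapk8-KO. No region was called within 2000 bp of the processed pseudogenes Ndufab1-ps, Ndufs6b, Ndufb4c and Ndufa11b.

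In complex III, Uqcrfs1, the Rieske iron-sulfur subunit, had a fold enrichment of 13.1 and 11.6 in WT and 17.4 and 15.1 in Mapk8-KO, a log2 difference of 0.44 with a limma adjusted p of 0.514. The promoters of 9 regulators of mitochondrial genes were called in all 4 libraries, with log2 differences from −0.09 at Ppargc1a to 0.30 at Gabpb1, 7 of 9 above 0 and 0 past the adjusted p. Gabpb1 was past the rank gap, at percentiles 33.5 and 29.4 in WT and 45.3 and 52.6 in Mapk8-KO. Counted with a wider window of 200 bp around the strongest summit, YY1 matches were in 11 of 45 complex I regions (24.4%), beside 5.15% of all promoter regions.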
